A study of Mus musculus with 4 samples.

Results

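Krüppel-like factors are zinc-finger transcription factors that bind CACCC and other GC-rich sequences in promoters and enhancers. Of the genes named Klf, 9 were followed in sorted cardiac endothelial cells: Klf2, Klf3, Klf4, Klf6, Klf7, Klf9, Klf10, Klf13 and Klf15. They were taken by gene symbol from the joined deposited tables, and all 9 were among the 14470 genes that varied between libraries, of 38087 listed.

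Transcripts were measured by RNA sequencing in 2 Gata4 KO libraries and 2 control libraries, all of C57BL/6 mice. Every animal carried a Tie2-CreERT2 transgene and a Cre-dependent eGFP reporter in the Rosa locus, and all received tamoxifen chow (40 mg/kg body weight) from 4 weeks of age for 4 weeks. Cells positive for eGFP and CD31 were sorted from the ventricles of healthy hearts at 8 weeks. The Gata4 KO group is labelled Gata4-deficient, through loxP-targeted Gata4 as the labels' protocols describe it. Tie2 regulatory sequence is active in endothelium and also in some blood cells, so the Cre is not a mark of endothelium alone. The name of control 1 joins 2 numbers (1 with 2). The description and data column of control 2 join 5 with 7, but its title gives 5 alone, and the Gata4 KO libraries have 1 number each. If joined numbers mean pooled animals, pooling and genotype cannot be told apart.

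Laminar blood flow raises KLF2 and KLF4 in endothelium through the kinases MEKK3, MEK5 and ERK5 and the MEF2 factors. Both factors are known to raise genes that keep vessels relaxed and free of clots and to hold back inflammatory genes. KLF6 and KLF10 are early-response genes of injury and of TGF-beta. KLF9, KLF13 and KLF15 respond to glucocorticoids or take part in metabolism, and KLF15 is abundant in heart muscle.

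In this comparison, transcript values of Klf2, Klf4 and Klf6 lay above both controls in both Gata4 KO libraries. Klf15 and Klf10 lay below both controls, and the groups of the other 4 genes overlapped. Over all tested genes, 15.7% lay above both controls and 17.3% below. Klf15 differed most, by at least 3.37-fold, and Klf2 was 1.81-fold and Klf6 1.72-fold higher in Gata4 KO. No Klf gene passed an adjusted p of 0.05 by limma, so all of these are given as values and not as changes.

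Promoter sequence is shown first for Klf2 and Klf4, the flow-responsive pair, and for Klf15, which differed most. Each line holds the 250 bases before the RefSeq start of the gene (GRCm38.p6, the same build as mm10), 5′ to 3′ on the gene's strand. Capitals mark matches on either strand to the 4 motifs searched. The Klf2 window is chr8:72318812-72319061 on the plus strand, the Klf4 window chr4:55532476-55532725 on the minus strand and the Klf15 window chr6:90462326-90462575 on the plus strand.
Klf2: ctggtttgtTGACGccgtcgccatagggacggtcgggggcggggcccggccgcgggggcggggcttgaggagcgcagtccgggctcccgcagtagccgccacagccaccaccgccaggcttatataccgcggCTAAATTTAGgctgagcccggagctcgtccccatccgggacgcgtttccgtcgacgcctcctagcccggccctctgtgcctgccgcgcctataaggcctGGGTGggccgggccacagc
Klf4: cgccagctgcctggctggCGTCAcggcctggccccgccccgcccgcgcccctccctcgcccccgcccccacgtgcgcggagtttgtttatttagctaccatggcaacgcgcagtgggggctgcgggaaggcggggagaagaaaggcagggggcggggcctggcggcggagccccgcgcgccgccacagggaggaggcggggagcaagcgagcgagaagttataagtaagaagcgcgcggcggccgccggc
Klf15: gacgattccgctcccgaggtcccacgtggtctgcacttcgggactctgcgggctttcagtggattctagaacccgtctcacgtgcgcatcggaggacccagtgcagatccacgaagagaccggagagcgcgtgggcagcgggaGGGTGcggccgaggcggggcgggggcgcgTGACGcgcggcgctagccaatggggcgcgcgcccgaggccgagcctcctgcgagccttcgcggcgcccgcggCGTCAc

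The motifs, searched on both strands, were CACCC, the box that KLF proteins bind, the MEF2-type CTANNNNTAG, the GATA-type AGATAA and a part of the cAMP response element, TGACG. CTANNNNTAG matched in Klf2, 118 to 109 bases upstream, and in no other of the 8 Klf windows that the RefSeq table holds. Of all 32851 promoter windows of that length, 3.2% held it. CACCC matched in 6 of the 8 windows, against 52% of all windows, and TGACG in 5 of 8, against 17.8%. AGATAA matched in 0 of 8, against 9.99% of all. These motifs overlap each other nowhere in the 3 printed windows. The Klf windows are rich in G and C (59.2 to 78.4%, against a median of 52.4% over all windows), and the shares of all windows were not matched for this. The end of the Klf2 window, with its match to CACCC, lies inside the gene as GENCODE M21 draws it. So do the end of the Klf3 window, with some of its matches to CACCC, and the last bases of the Klf6 window. The whole Klf7 window, with all its matches to CACCC, lies inside that gene. A match is a run of letters and is not evidence of binding. The Klf6 window held none of the 4 motifs, and Klf10 is named only.

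Values are on the deposited log2 scale, where 0 is the median of a gene in these libraries. They give the difference between libraries for a gene and not its level, so genes cannot be ranked by abundance, and sequencing depth is unknown. Lowest values tied between libraries mark a lower threshold of the deposited data. Differences are Gata4 KO minus control on the log2 scale, with the standard error (SE), the 95% interval and the Benjamini-Hochberg adjusted p over all 14470 genes from limma. Over all genes 0 passed 0.05 (0%), while 399 genes (2.76%) were higher and 776 (5.36%) lower at an unadjusted p of 0.05. With libraries centred on endothelial markers that split was 295 and 997, and with a mean trend in the fit 27 genes passed adjustment. Both Gata4 KO values lay above both controls in 15.7% of genes and below both in 17.3%, or 11.2% and 29.6% with libraries centred on endothelial markers. An exact two-sided permutation test of 2 against 2 libraries cannot go below p = 0.333.

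Gata4 itself lay at -0.14 and -0.46 in Gata4 KO libraries, against 0.48 and 0.14 in controls, in the direction of the labels (difference -0.61, SE 0.26, limma adjusted p = 0.663). How reads were counted over Gata4 is unknown, and the deleted stretch is not named in the labels. Xist was at its lowest value in both controls and far above it in both Gata4 KO libraries, and 4 Y-linked genes were at their lowest in Gata4 KO only. In every value below, therefore, genotype cannot be told apart from the sex of the animals. All 14 pan-endothelial markers varied between libraries, with none at a shared lowest value. Their mean over the list was 0.07 and 0.05 in Gata4 KO libraries and -0.10 and -0.11 in controls. Of these markers, 5 lay above both controls (15.7% over all genes), 0 below (17.3%) and 9 overlapped. Their differences were positive in 10 and negative in 4, with a median of 0.078.

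**Figure D1:**
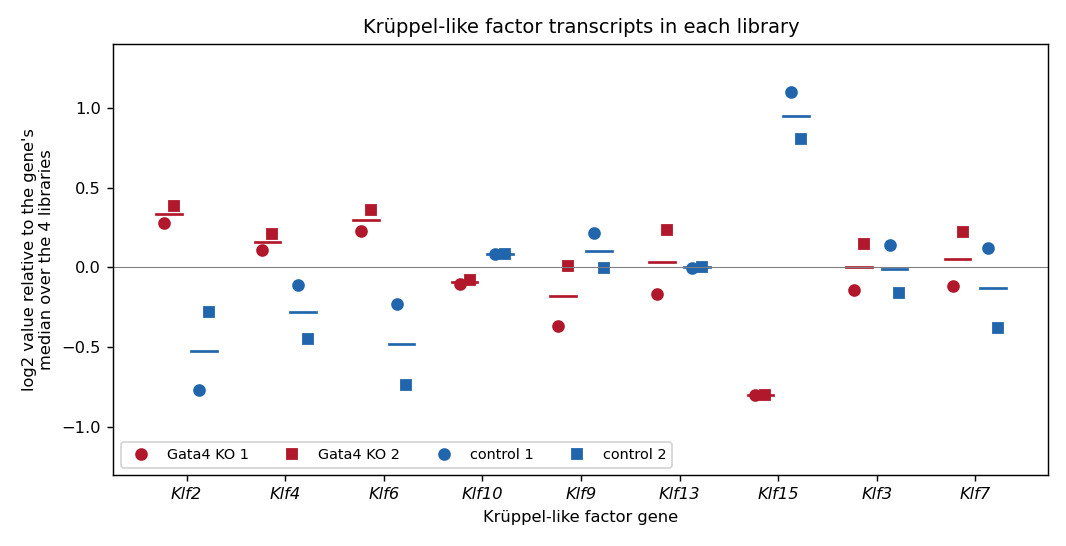
Log2 values of the 9 Klf genes (vertical axis, 0 at the median of the gene), with Gata4 KO libraries in red at left and controls in blue at right for each gene; bars are group means. Klf2, Klf4 and Klf6 have both Gata4 KO points above both controls, and Klf15 has both at its lowest value of -0.80.

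Klf2 (ENSMUSG00000055148, mm10 chromosome 8, 72319033 to 72321656, protein coding), the best known flow-induced factor of endothelium, had log2 values of 0.28 and 0.38 in the Gata4 KO libraries, against -0.77 and -0.28 in the controls. The groups did not overlap, and control 1 was the lowest of all 4. The difference was 0.86 (SE 0.26, 95% interval 0.17 to 1.54, limma adjusted p = 0.505), or 1.81-fold with an interval of 1.13 to 2.9. It was larger than the gap between replicates in either group, and it ranged from 0.61 without control 1 to 1.10 without control 2.

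Klf4 (ENSMUSG00000003032, chromosome 4, 55527143 to 55532466), a factor that shares many endothelial targets with KLF2, had values of 0.11 and 0.21 in Gata4 KO, against -0.11 and -0.45 in controls. The groups did not overlap, and here control 2 was the lowest library. The difference of 0.44 (SE 0.24, interval -0.18 to 1.05, limma adjusted p = 0.794) includes 0 in its interval. Without control 2 it was 0.27 and without control 1 it was 0.61. Fold values were 1.81 for Klf2 and 1.35 for Klf4, and the intervals of their differences overlap. Whether the pair differ from each other was not tested.

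Klf6 (ENSMUSG00000000078, chromosome 13, 5861482 to 5870394), an early-response factor of vascular injury, had values of 0.23 and 0.36 in Gata4 KO, against -0.23 and -0.74 in controls. As in Klf4, control 2 was the lowest library. The difference was 0.78 (SE 0.27, interval 0.09 to 1.47, limma adjusted p = 0.555), or 1.72-fold. Klf10 (ENSMUSG00000037465, chromosome 15, 38291463 to 38300706), the TGF-beta-inducible early gene, had its values in the other order, at -0.11 and -0.082 in Gata4 KO, against 0.082 and 0.083 in controls. The groups did not overlap and replicates lay close together, and the difference was -0.18 (SE 0.21, interval -0.72 to 0.37, limma adjusted p = 0.895).

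Klf15 (ENSMUSG00000030087, chromosome 6, 90462576 to 90475238) encodes a factor of amino acid, lipid and glucose metabolism that glucocorticoids induce. Its lowest value, -0.80, was shared by both Gata4 KO libraries, against 1.10 and 0.80 in the controls. The groups did not overlap, and both controls were well above the shared lowest value, by 1.75 on average. The gene was thus at least 3.37-fold lower in Gata4 KO (difference -1.75, SE 0.23, interval -2.35 to -1.16, limma adjusted p = 0.241), rank 38 of 14470 by p. The tie hides the spread of the Gata4 KO group, so its SE and p may be too small. Over the alternatives that could be fitted, its difference was -1.90 to -1.60 and its adjusted p 0.0705 to 0.824.

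Klf9 (ENSMUSG00000033863, chromosome 19, 23141226 to 23168134), another glucocorticoid-induced factor, had -0.37 and 0.0063 in Gata4 KO, against 0.22 and -0.0063 in controls. The groups overlapped through Gata4 KO 2 and control 2, and the difference was -0.29 (SE 0.25, interval -0.94 to 0.37, limma adjusted p = 0.853). Leaving out Gata4 KO 1 gave -0.099, and leaving out Gata4 KO 2 gave -0.47. Klf13 (ENSMUSG00000052040, chromosome 7, 63886351 to 63938915), known for its role in T cells and in the developing heart, had -0.17 and 0.23 in Gata4 KO around 2 nearly equal controls of -0.0012 and 0.0012. Its difference was 0.032 (interval -0.60 to 0.67, limma adjusted p = 0.984), with a sign that turned to -0.053 when libraries were centred on endothelial markers. The groups overlapped in both genes and not in Klf15, and no test compared the genes with each other.

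The remaining pair showed values on both sides of 0 in each group. Klf3 (ENSMUSG00000029178, chromosome 5, 64803388 to 64832901), a repressor that recruits CtBP proteins, had -0.14 and 0.15 in Gata4 KO, against 0.14 and -0.16 in controls. Its difference was 0.014 (interval -0.63 to 0.66, limma adjusted p = 0.995) and turned to -0.071 when libraries were centred on endothelial markers. Klf7 (ENSMUSG00000025959, chromosome 1, 64029447 to 64122282), best known from neurons and fat cells, had -0.12 and 0.22 in Gata4 KO, against 0.12 and -0.38 in controls. The difference of 0.18 (interval -0.55 to 0.91, limma adjusted p = 0.921) has an interval that runs, in folds of the control, between 0.681 and 1.88. Without control 2 the sign turned, at -0.067.

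Across the 9 genes, 3 lay above both controls (15.7% over all genes), 2 below (17.3%) and 4 overlapped. The median difference was 0.032, beside -0.0088 over all tested genes. At an unadjusted limma p of 0.05, 2 were higher (2.76% over all genes) and 1 lower (5.36%). The size of the difference exceeded the gap between replicates in both groups for 5 of the 9, beside 21.9% of all tested genes. Gata4 KO 2 had the higher value of the Gata4 KO pair in 8 of 9 genes and tied in Klf15, beside 47.6% of all genes with that order. Control 1 was above control 2 in 6 of 9, beside 59% of all genes. The 9 genes thus had no common direction between the groups.

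**Figure D2:**
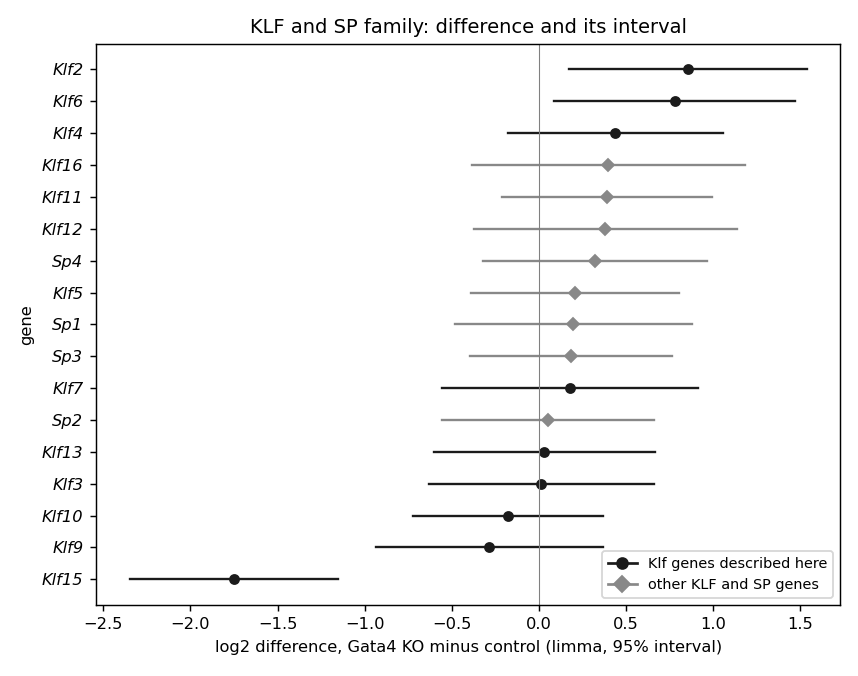
Log2 difference, Gata4 KO minus control (horizontal axis), with its 95% interval from limma for the 9 Klf genes (black circles) and the other 8 tested KLF and SP family genes (grey diamonds). Intervals of Klf2, Klf6 and Klf15 exclude 0, before adjustment for the number of genes, and the interval of Klf15 rests on a tied group.

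Of the other 17 KLF and SP family genes, 8 were tested and 9 had the same value in all 4 libraries. Among those with no variation were Klf1, the erythroid factor, Klf8, Klf14 and Klf17. All 8 tested genes had positive differences (0.053 to 0.40, median 0.26), with 4 above both controls (15.7% over all genes) and 0 below (17.3%). Klf16 had the largest at 0.40, with -0.040 and 0.36 in Gata4 KO against -0.52 and 0.040 in controls. Klf11, a TGF-beta-inducible factor related to Klf10, had 0.39, with 0.085 and 0.32 in Gata4 KO against -0.085 and -0.30 in controls. At the other end stood the ubiquitous factors Sp3 at 0.18 and Sp2 at 0.053, and Sp2 turned to -0.032 when libraries were centred on endothelial markers. None of the 8 had an unadjusted p under 0.05. Klf5 was at its lowest value in both controls and at least 1.15-fold higher in Gata4 KO.

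Genes known to act upstream of Klf2 and Klf4 had differences between -0.30 and 0.58. Of 17 tested, 6 lay above both controls (15.7% over all genes), 1 below (17.3%) and 10 overlapped, with a median of 0.066. Mapk7, which encodes ERK5, had the largest difference at 0.58 (SE 0.30), with 0.12 and 0.80 in Gata4 KO against -0.12 in both controls to 2 decimals. Gata4 KO 2 carried most of that difference. Kdr, the VEGF receptor gene that also takes part in flow sensing, had 0.44, with 0.11 in both Gata4 KO libraries against -0.11 and -0.54 in controls. The lowest were Map3k2, a MEK5 kinase gene, at -0.30 and Krit1, which encodes a cerebral cavernous malformation protein that holds back KLF2 and KLF4, at -0.29. The Krit1 groups overlapped, with control 1 at 0.68 and control 2 at -0.11, and the sign turned without control 1 (0.11). The flow sensor Piezo1, listed under an older symbol, differed by 0.0017.

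Genes that KLF2 or KLF4 are known to induce in endothelium did not share a direction. Of 8 tested, 2 lay above both controls (15.7% over all genes), 2 below (17.3%) and 4 overlapped, with a median of 0.087 and a mean of -0.092. Thbd, which encodes the anticoagulant receptor thrombomodulin, had a difference of 0.31, with 0.088 and 0.22 in Gata4 KO against -0.088 and -0.22 in controls. Aqp1, the water channel gene, had 0.27. Ptgds, which encodes the enzyme that forms prostaglandin D2, lay in the opposite direction at -1.26 (SE 0.24, limma adjusted p = 0.322). Its values were -0.76 and -0.52 in Gata4 KO, against 0.52 and 0.73 in controls. Nppc, the gene of C-type natriuretic peptide, was at its lowest value in 3 libraries and above it in control 2.

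Genes that KLF2 or KLF4 are known to hold back mostly had negative differences. Of 7 tested, 5 lay below both controls (17.3% over all genes), 1 above (15.7%) and 1 overlapped, with a median of -0.66. That median is the value of Sele, the overlapping gene, which was above its lowest value in control 1 only. At an unadjusted limma p under 0.05, 3 were lower (5.36% over all genes). Il6 had -0.96 and -0.22 in Gata4 KO, against 0.95 and 0.22 in controls (difference -1.17, SE 0.39, limma adjusted p = 0.543). Ccl2, which encodes the monocyte chemoattractant, had -1.04 and -0.42 in Gata4 KO, against 0.42 in both controls (difference -1.15, SE 0.29, limma adjusted p = 0.424). Edn1, the gene of the constrictor endothelin 1, had -0.27. Angpt2, which encodes the vessel-destabilizing angiopoietin 2, was the 1 gene with a positive difference, at 0.31. Il6 and Ccl2 are also made by fibroblasts and macrophages, whose markers also had lower values in Gata4 KO. The part of those cells in these values was not tested. In bulk libraries, fewer cells of a type and less RNA per cell cannot be told apart.

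Co-regulators and genes of KLF protein turnover were split evenly, with 5 of 10 positive and 5 negative and a median of 0.0018. Btrc and Sin3a, which encode a ubiquitin ligase subunit and a co-repressor scaffold, had differences of 0.46 and 0.39. Wwp1, a ubiquitin ligase gene, had -0.36, and Ctbp2, which encodes a partner of KLF3, had -0.19. Of the 10, 4 lay above both controls (15.7% over all genes) and 0 below (17.3%).

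Glucocorticoid-induced genes, given as context for Klf9 and Klf15, diverged. Of 12 tested, 3 lay above both controls (15.7% over all genes), 3 below (17.3%) and 6 overlapped (median -0.064). Errfi1, a feedback inhibitor of the EGF receptor, had 0.43 and 0.57 in Gata4 KO, against -0.46 and -0.43 in controls (difference 0.95). Sgk1, a salt-regulating kinase gene, had a difference of 0.93. Both of these also answer growth factor or stress signals. In the other direction stood Zbtb16, which encodes the zinc-finger protein PLZF, and Fkbp5, a co-chaperone of the glucocorticoid receptor. Zbtb16 had -2.05 and -0.37 in Gata4 KO, against 0.37 and 0.81 in controls, a difference of -1.80 (SE 0.59, limma adjusted p = 0.533) that was -0.96 without Gata4 KO 1. Fkbp5 had -0.73 and -0.087 in Gata4 KO, against 1.05 and 0.087 in controls (difference -0.98, SE 0.43), and its difference was -0.50 without control 1. The list also holds Nr3c1, the gene of the glucocorticoid receptor itself (difference -0.12), and Dusp1, which is counted among the immediate early genes below too. Over the 12 genes, 4 differences were positive and 8 negative, and a link between this list and Klf15 was not tested.

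Metabolic genes known as KLF15 targets from liver, muscle and heart had a median of -0.063 over 8 tested. Of these 8, 1 lay above both controls (15.7% over all genes), 2 below (17.3%) and 5 overlapped. Slc25a20, the mitochondrial carnitine carrier gene, had -0.58 (SE 0.35) and Slc2a4, the insulin-responsive glucose transporter gene, -0.36, with overlapping groups in both. Acss1, a mitochondrial acetyl-CoA synthetase gene, had 0.35, and Gpt, an alanine transaminase gene, was above its lowest value in Gata4 KO 1 only.

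**Figure D3:**
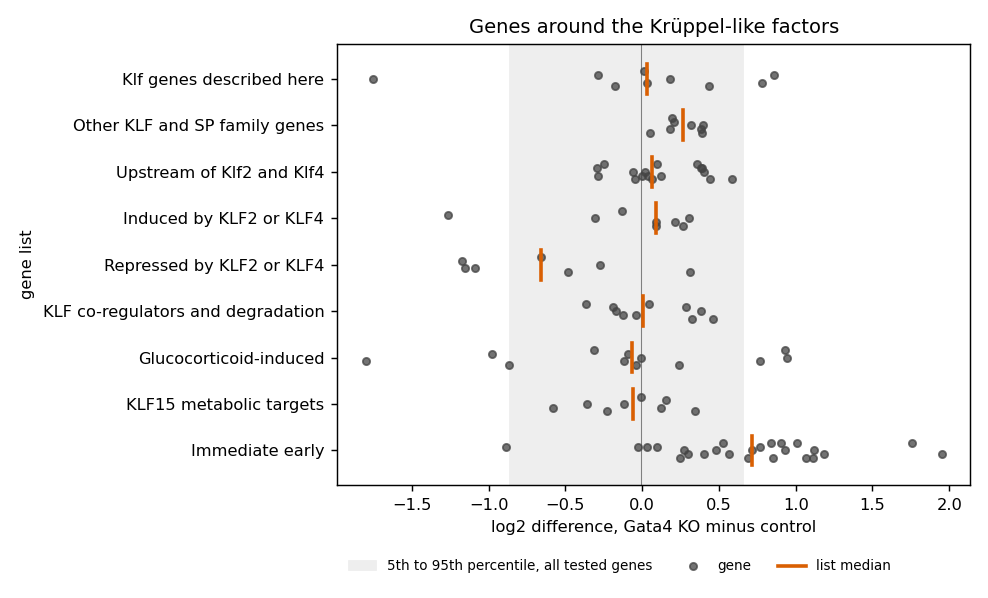
Log2 difference, Gata4 KO minus control (horizontal axis), for each tested gene of the lists around the Klf genes (dots) with list medians (orange) and the span from the 5th to the 95th percentile of all tested genes in grey. Immediate early genes have a median of 0.71 and genes held back by KLF2 or KLF4 one of -0.66; the medians of the other lists lie between -0.064 and 0.26.

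Klf2, Klf4 and Klf6 are themselves rapidly induced, and immediate early genes are given beside them. That list also holds the heat shock genes Hspa1a, Hspa1b and Dnajb1 and the stress gene Ppp1r15a, all above both controls. Of 25 tested, 19 lay above both controls (15.7% over all genes), 1 below and 5 overlapped, with a median of 0.71. At an unadjusted limma p of 0.05, 12 were higher (2.76% over all genes) and 1 lower (5.36%). Egr3, a zinc-finger early gene, had 0.78 and 0.93 in Gata4 KO, against -1.42 and -0.78 in controls (difference 1.95, SE 0.30, limma adjusted p = 0.297). Nr4a1, an orphan nuclear receptor gene, had a difference of 1.76, larger than that of Klf2. Of the 25 differences, 23 were positive and 2 negative, those of Myc (-0.89) and Ier3 (-0.025). These genes also respond to enzymatic dissociation and sorting of cells. The mean over the list was 0.23 and 0.39 in Gata4 KO libraries, against -0.43 and -0.31 in controls, and its part in the values of Klf2, Klf4 and Klf6 was not tested.

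Markers of other cell types differed between the groups beside Klf15 and the early-response Klf genes. Over all genes, 15.7% lay above both controls and 17.3% below, or 11.2% and 29.6% with libraries centred on endothelial markers. Fibroblast markers lay below both controls in 12 of 12 genes, with list means of -0.37 and -0.94 in Gata4 KO libraries, against 1.24 and 0.35 in controls. Macrophage markers did so in 8 of 10 (-0.65 and -0.32 in Gata4 KO, against 0.73 and 0.24 in controls) and lymphatic markers in 6 of 7 (-0.48 and -1.11 in Gata4 KO, against 0.67 and 0.75 in controls). Klf15 is best known from heart muscle, and cardiomyocyte markers lay below both controls in 6 of 10 genes, with Myl7 at its lowest value in both Gata4 KO libraries. The list's median difference was -0.40, and its means were -0.21 and -0.67 in Gata4 KO, against 0.42 in both controls. Myl7 carried much of that: without it, a choice made after its values were seen, the means of the other 9 were 0.019 and -0.50 in Gata4 KO, against 0.21 and 0.18 in controls. Smooth muscle and pericyte markers lay below both controls in 4 of 10 and above in 1, with a median of -0.16. Lymphocyte markers had 3 tested genes, with 1 above both controls and 0 below, 1 positive and 2 negative differences and a median of -0.035. Neutrophil markers had 4 tested genes, with 1 above both controls and 0 below, 4 positive differences and a median of 0.65. The neutrophil list means were 0.64 and -0.0060 in Gata4 KO, against -0.56 and -0.11 in controls. The part of these cells in the Klf15 value was not tested.

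**Figure D4:**
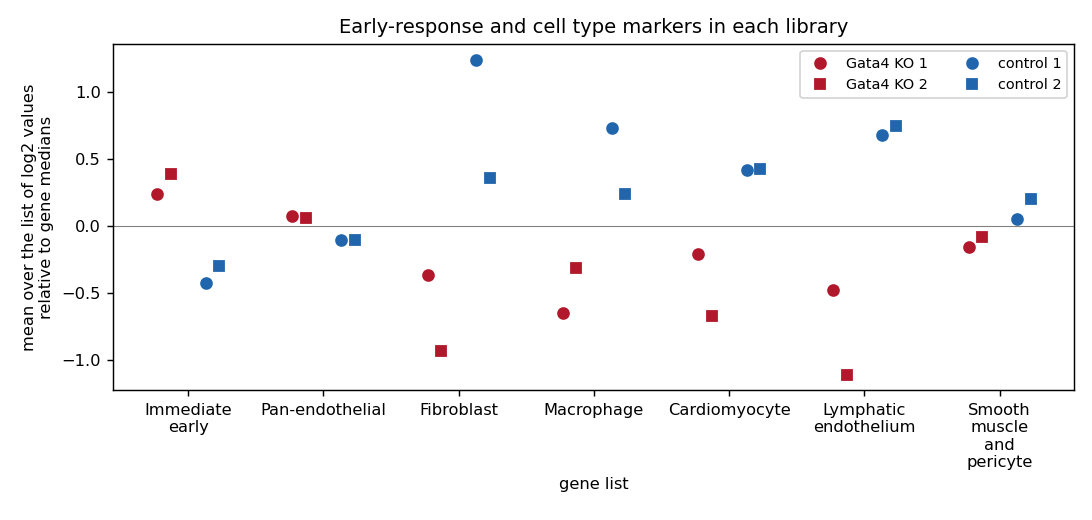
Mean over each list of log2 values relative to gene medians (vertical axis), with Gata4 KO libraries in red at left and controls in blue at right. Immediate early genes are higher in both Gata4 KO libraries, and fibroblast, macrophage, cardiomyocyte and lymphatic markers are lower, with control 1 highest for fibroblast markers at 1.24.

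Among 11901 other protein-coding genes, those whose 4 values lay closest to Klf2 by Euclidean distance were Arid5a (0.11), Iqcc (0.14), Dpm1 (0.15), Tomt (0.16) and Naif1 (0.17). Arid5a, which encodes an RNA-binding protein, had 0.30 and 0.47 in Gata4 KO, against -0.71 and -0.30 in controls. Closest to Klf4 were Tppp (0.032), Bcor (0.036), Cars2 (0.038), Rgs16 (0.041) and Wtip (0.041). Bcor, a co-repressor gene, had 0.12 and 0.22 in Gata4 KO, against -0.12 and -0.42 in controls. Likeness over 4 libraries describes the pattern only. The neighbours were chosen on these same values, so a lowest library shared with their gene follows from the choice. It was control 1 for Klf2 and its neighbours, and control 2 for Klf4 and its neighbours.

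Several Klf genes overlap other annotated genes in GENCODE M21, and whether the counting used strand is not given in the sources used here. Klf7 holds the antisense gene Gm13748, which had 0.79 and 0.093 in Gata4 KO, against -0.093 and -0.27 in controls. Whether reads of the 2 genes were kept apart is therefore unknown. The antisense genes listed beside Klf3 and Klf13 had the same value in all 4 libraries. Klf9 contains Mir1192, with 0.23 and 0.46 in Gata4 KO, against -0.23 and -1.83 in controls and thus with a difference of the opposite sign to that of Klf9. Klf2, Klf4, Klf6, Klf10 and Klf15 overlap no other annotated gene.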

How the data were processed

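RNA of sorted eGFP+ CD31+ cells was sequenced in 4 libraries, all from run 2110 per the labels. The values are log2 as the authors deposited them, in tables split by the sign of the difference. A signed fold change that the authors deposited beside them is a score that enters no result. Per the file headers, genes follow Ensembl, and the submitters' processing notes name mm10. Of aligner, quantification, unit before the logarithm, normalization and depth, each is not given in the sources used here. Values were centred by gene: the median of the 4 libraries was 0 in each gene (tolerance 1e-05). Ties occurred only at a gene's lowest value (tolerance 2e-06), in 2 libraries for 1011 tested genes and in 3 for 1565.

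The tables were joined, and 23617 genes with 1 value in all libraries were left out. The groups were compared with limma 3.58.1 under R 4.3.3 (eBayes without trend, two-sided, Benjamini-Hochberg over 14470 genes). The fit was also run on simulated data without tied lowest values, and no result here rests on that run. Replicate numbers follow deposition order and pair nothing. The labels do not say whether libraries came from separate animals, so p-values reflect only how these libraries vary, perhaps for technical reasons. The Klf genes and all lists were chosen with earlier results of these data known. All Klf genes are named, with the 2 highest and 2 lowest differences of each of the 8 lists of family, pathway and response genes (cell type markers are given by counts and means), and the 5 genes closest to Klf2 and to Klf4; a few others were named after their values were seen. Alternatives were a mean trend, leaving out tied genes, a pair of library centrings and leaving out each library. Coordinates are from GENCODE M21, which matched 14202 tested genes, and promoters from RefSeq (GRCm38.p6).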

Additional observations from a re-analysis of the deposited data

How the results depend on the processing

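No Klf gene passed an adjusted p of 0.05 under any of the 8 alternatives (7 for Klf15, which is tied and drops out without tied genes). Genes called over all genes numbered 27 with a mean trend, 51 without tied genes and 7 under each centring, and 0 in the main fit and without any single library. At an unadjusted p of 0.05, leaving out a library gave 379 to 1069 genes higher (1069 without control 1) and 444 to 1547 lower (1547 without control 2, and 497 and 444 without the first and second Gata4 KO library). Klf genes above both controls numbered 3 to 6 when a library was left out (5 without control 1, 6 without Gata4 KO 1) and those below 2 to 4 (4 without Gata4 KO 2), where fewer libraries make separation easier: 36.9% of all genes lay above without control 1 and 31.2% without Gata4 KO 1, and 28.5% below without Gata4 KO 2. Without tied genes 1 Klf gene lay below, because Klf15 was left out.

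Signs turned in genes with small differences, and the cause was not tested. Centring on endothelial markers gave -0.071 for Klf3, -0.053 for Klf13 and -0.032 for Sp2. Leaving out a library gave -0.14 to 0.17 for Klf3, -0.067 to 0.43 for Klf7, -0.17 to 0.23 for Klf13, -0.099 to 0.20 for Sp2, -0.68 to 0.11 for Krit1, -0.38 to 0.0056 for Ctbp2 and -0.14 to 0.091 for Ier3. Klf2, Klf4, Klf6, Klf9, Klf10 and Klf15 kept their sign in all alternatives fitted. Leaving out 1 library moved the difference by over 1.5 times in 5 of the 9 Klf genes (Klf3, Klf4, Klf7, Klf9 and Klf13) and in 22 of the 32 other genes named by the rule. Egr3 passed without tied genes (adjusted p = 0.0462).

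No paired analysis was possible because replicate numbers follow deposition order and link no libraries across groups. With 2 libraries a group, unknown depth and values without levels, the intervals of the Klf genes are wide.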
